A study of Danio rerio with 6 samples.

Results

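Transcripts of cell cycle and DNA replication genes were measured in larval zebrafish (Danio rerio) heads, 3 days after fertilization. The genes were taken by name from the deposited table of counts: 33 of 34 names were found as gene names, on 35 rows, and h2az2a was found under its older symbol h2afva, which gave 36 of 32520 genes. The names rrm2 and ube2c each stood on a pair of rows with different Ensembl identifiers. The set was split by role into S-phase genes (13 rows), genes of G2 and mitosis (19 rows) and chromatin or structural genes typical of dividing cells (4 rows). A filter on low counts was passed by 35 of the 36, and the exception was the second rrm2 entry (ENSDARG00000078069), with between 2 and 17 counts a library. Fish homozygous for the y712 allele of srrm4 were compared with wild-type siblings, with 3 libraries a genotype numbered 1 to 3. Srrm4 is a splicing regulator that promotes inclusion of very short neuronal exons, and the title of the series asks how strongly its loss affects neural development. The labels do not describe what y712 changes in the gene, how many larvae made up a library, or whether replicates came from separate clutches. The p-values therefore set differences against the spread that each fit left among these libraries, part of which may be technical.

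A cell that divides first licenses its origins of replication by loading the MCM helicase, and in S phase it copies its DNA with the sliding clamp PCNA and a supply of deoxynucleotides from ribonucleotide reductase and thymidylate synthase. It then enters mitosis when cyclin B activates Cdk1, builds a spindle with kinesin motors and Aurora and Polo kinases, and leaves mitosis when the anaphase-promoting complex, with its activator Cdc20, marks cyclin B for destruction. Most of these transcripts are made only in cycling cells. In the larval zebrafish head such cells sit mainly in the ventricular zones of the brain and at the rim of the retina, beside many neurons that have left the cycle. Roles given below are those known for the vertebrate proteins.

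Total counts ranged from 52510621 to 101032166 a library. The transcript of srrm4 itself was not lower in mutants, at 14.6, 53.6 and 55.1 CPM (counts scaled to library size with TMM factors) in wild-type replicates 1, 2 and 3 and 18.7, 58.7 and 57.9 CPM in the mutant replicates, so it gives no check of the genotype labels. Both replicate 1 libraries stood apart and fitted the head label less well: hox genes of groups 9 to 13, which mark the trunk and tail, summed to 135 CPM in wild-type replicate 1 and 119.6 CPM in mutant replicate 1, against 14.6 to 21.8 CPM in the other 4. Skeletal muscle markers summed to 94444 and 94800 CPM in these libraries and to between 16901 and 28820 CPM elsewhere. Neuron markers were lower there, at 3273 and 3242 CPM against 5563 to 6019 CPM. Same-numbered libraries deviated together, most clearly those of replicate 1, so a fit that treats the replicate number as a block gives the values of single genes below.

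No gene of the set passed the test between mutant and wild-type heads. With all libraries, the estimates of nearly all members nevertheless lay slightly above wild-type, and less uniformly so in single pairs. The median log2 fold change (mutant over wild-type) was 0.068 without the block and 0.069 with it, a difference of 4.9%. The median over all tested genes was 0.00041 and -0.0010. With the block, 34 of 35 members had a log2 fold change above 0, where 49.6% of all 24765 tested genes did. The exception was kif20a. The set was chosen with this direction already known, so the count describes the members and gives it no independent support. In bulk RNA, a larger share of dividing cells and more of each transcript per cell cannot be told apart.

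The test itself, edgeR's quasi-likelihood F test with Benjamini-Hochberg adjustment over all tested genes, called 0 of 35 members and 0% of all tested genes, with 0 members and 70 genes (0.283%) at an unadjusted p under 0.05. With the replicate block edgeR again called 0 members and 0% of all genes, and the smallest adjusted p of a member was 0.939. At an unadjusted p under 0.05 in that fit, 3 members were higher (mcm4, rrm2 and ccnb1) and 0 lower, against 2% and 2.6% of all tested genes in each direction. DESeq2 and limma-voom without the block also called 0 members. DESeq2 with the block called 18 genes, none of them a member. The median standard error of a member was 0.14 on the log2 scale without the block and 0.045 with it, and the 95% intervals with the block spanned folds from 0.811 to 1.32 over the members. On simulated data the fit with the block made more false calls than its threshold allows, so its intervals may be too narrow. Without the block the intervals were much wider, reaching down to -0.83 on the log2 scale for bub1 and up to 0.998 for mcm7. The absence of calls therefore does not show that the members did not differ.

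**Figure D1:**
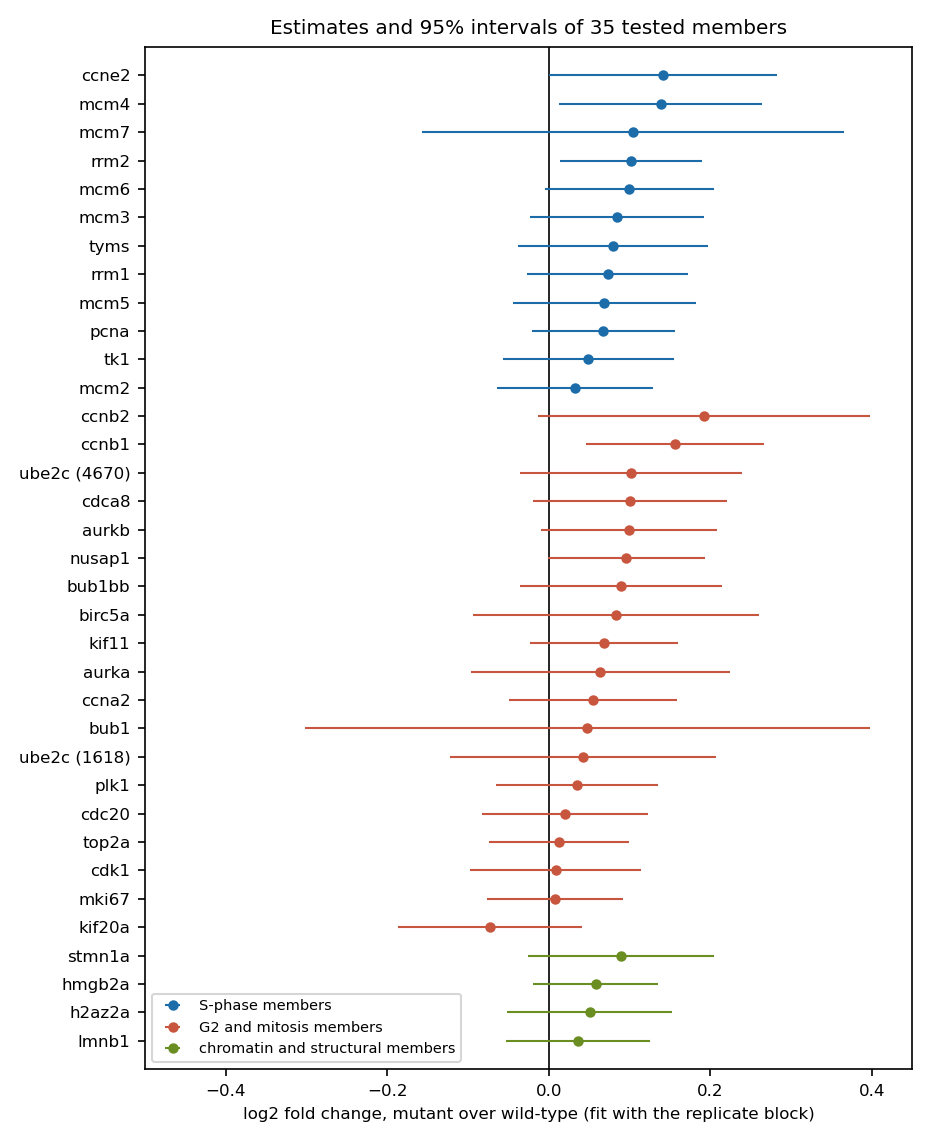
Log2 fold change of mutant over wild-type for the 35 tested genes in the edgeR fit with the replicate block (point) with its 95% interval (bar), coloured by role. Points of 34 genes lie right of 0 and kif20a lies left of it, while the intervals of all but 3 genes (mcm4, rrm2 and ccnb1) include 0.

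The 6 subunits of the replicative helicase were the largest family among the S-phase genes. Mcm4 measured 98.1, 97.0 and 99.2 CPM in wild-type replicates 1, 2 and 3 and 113, 112 and 99.2 CPM in the corresponding mutant libraries. The mutant library was thus higher for replicates 1 and 2 and level for replicate 3, and its log2 fold change with the block was 0.14 (SE 0.053, edgeR adjusted p 0.939), or 0.21 without the replicate 3 pair. Mcm6 measured 90.0, 100.5 and 100.4 CPM in wild-type libraries and 102, 103 and 106 CPM in mutant libraries. It was the single member whose genotypes did not overlap, 1 of 35, where all mutant libraries lay above all wild-type libraries for 1.09% of tested genes and below them for 0.945%. Its log2 fold change with the block was 0.100 (SE 0.044, edgeR adjusted p 0.939), and 0.059 without the replicate 1 pair.

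The other subunits overlapped between genotypes. Mcm3 stood at 67.8, 73.4 and 75.1 CPM in wild-type libraries and 74.8, 79.7 and 74.9 CPM in mutant libraries, and mcm5 at 93.4, 98.8 and 105 CPM against 106, 101 and 105 CPM. Mcm2 gave 101, 116 and 119 CPM and 107, 119 and 117 CPM. All of these were highest above wild-type in the replicate 1 pair and level or slightly lower in the replicate 3 pair. Mcm7 varied more between replicates than the rest of its complex. It measured 88.9, 49.2 and 52.5 CPM in wild-type libraries and 101, 61.4 and 46.3 CPM in mutant libraries, with log2 differences within the pairs of 0.18, 0.32 and -0.18. The spread between replicates of mcm7 (SD 22 and 28 CPM, n = 3 each) was several times its difference between the genotypes.

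Pcna, the sliding clamp that holds DNA polymerase on its template, measured 410.3, 302 and 310.1 CPM in wild-type replicates 1, 2 and 3 and 437, 325 and 311 CPM in mutant replicates. Each mutant library was above its partner, by 0.091, 0.11 and 0.0053 on the log2 scale, and the genotypes overlapped. With the block its log2 fold change was 0.067 (SE 0.037, 95% interval -0.021 to 0.16, edgeR adjusted p 0.939).

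Genes of nucleotide supply also had log2 fold changes above 0. Rrm2 (ENSDARG00000020711), the regulated subunit of ribonucleotide reductase, was the steadiest: 95.3, 103 and 99.9 CPM in wild-type libraries and 102, 110.1 and 108 CPM in mutant libraries, with pair differences of 0.10, 0.095 and 0.11. Its log2 fold change with the block was 0.10 (SE 0.037, edgeR adjusted p 0.939), and only mutant replicate 1 fell within the wild-type range. Rrm1, the large subunit of the same enzyme, measured 122, 154 and 141 CPM in wild-type libraries and 135, 155 and 148 CPM in mutant libraries. Tyms, which makes thymidylate, was higher in both replicate 1 libraries (33.8 and 37.6 CPM) than in the others (at most 26.4 CPM). Tk1, which salvages thymidine, stood at 28.5, 27.2 and 33.4 CPM in wild-type libraries and 30.1, 28.2 and 33.8 CPM in mutant libraries, highest in replicate 3 of each genotype. For rrm1, tyms and tk1 every mutant library was above its partner, and the genotypes overlapped.

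Ccne2, the cyclin E that activates Cdk2 at the start of S phase, had 29.7, 31.5 and 28.9 CPM in wild-type libraries and 29.7, 37.8 and 32.1 CPM in mutant libraries. The mutant excess came from replicates 2 and 3, with pair differences of 0.26 and 0.15, and the replicate 1 pair differed by only 0.00061. Its log2 fold change with the block was 0.14 (SE 0.059, edgeR adjusted p 0.939), which together with mcm4 was the highest of the S-phase genes with all libraries. Without the replicate 2 pair it was 0.083.

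Among the G2 and mitosis genes the B-type cyclins, which activate Cdk1 for entry into mitosis, had the highest log2 fold changes in the fit with all libraries. Ccnb1 measured 61.0, 54.1 and 56.5 CPM in wild-type replicates 1, 2 and 3 and 70.2, 62.2 and 59.2 CPM in mutant replicates. Each mutant library was above its partner, by 0.20, 0.20 and 0.067, although mutant replicate 3 was below wild-type replicate 1. With the block its log2 fold change was 0.16 (SE 0.046), a fold of 1.11 (95% interval 1.03 to 1.203, edgeR adjusted p 0.939). Ccnb2, with low counts, measured 6.29, 5.23 and 5.58 CPM in wild-type libraries and 6.92, 6.59 and 5.999 CPM in mutant libraries. Its log2 fold change was the highest of all members in that fit at 0.19 (SE 0.087), with an interval of -0.014 to 0.40. The order did not hold when a pair was left out. Without the replicate 1 pair birc5a (0.18) and ube2c entry ENSDARG00000114670 (0.157) were above ccnb1 (0.136), without the replicate 2 pair aurkb (0.126) was above ccnb2 (0.121), and without the replicate 3 pair bub1 (0.207) was above ccnb1 (0.204).

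The partners of these cyclins and the regulators that act with them stood closer to wild-type. Cdk1, the mitotic kinase itself, measured 59.0, 50.9 and 54.9 CPM in wild-type libraries and 57.1, 53.7 and 54.6 CPM in mutant libraries, a log2 fold change of 0.0085 (SE 0.045) with the block, which was 0.038 without the replicate 1 pair and -0.024 without the replicate 2 pair. Ccna2, the cyclin of S phase and G2, gave 60.9, 58.9 and 59.7 CPM against 64.7, 62.8 and 59.1 CPM. Plk1, a kinase that drives mitotic entry and spindle assembly, was between 74.7 and 81.0 CPM in all 6 libraries. Cdc20, which switches on the anaphase-promoting complex, lay between 39.6 and 45.3 CPM. These 4 genes overlapped between genotypes. Whether they differ from the B-type cyclins was not tested.

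Ube2c, the ubiquitin-conjugating enzyme of the anaphase-promoting complex, had a pair of entries. ENSDARG00000114670 measured 43.1, 28.9 and 28.9 CPM in wild-type libraries and 42.9, 34.1 and 30.4 CPM in mutant libraries. ENSDARG00000101618 measured 13.4, 9.64 and 10.7 CPM and 13.1, 9.56 and 11.98 CPM. Counting could have divided reads between such same-named entries, so the value of each alone is uncertain. Both were high in replicate 1 and both overlapped between genotypes.

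Kinases and scaffolds of the chromosomal passenger complex, which corrects the attachment of chromosomes to the spindle, lay slightly above wild-type. Aurkb, its kinase, measured 41.5, 26.9 and 25.2 CPM in wild-type libraries and 44.4, 27.9 and 27.9 CPM in mutant libraries, with each mutant library above its partner. Cdca8 (borealin) gave 26.4, 20.0 and 20.4 CPM against 27.2, 22.5 and 21.7 CPM. Birc5a (survivin) gave 20.1, 14.6 and 14.4 CPM against 18.5, 16.9 and 16.0 CPM, lower than its partner in replicate 1 and higher in the others. Their log2 fold changes with the block were 0.100 (SE 0.046), 0.10 (SE 0.051) and 0.084 (SE 0.075). That of birc5a was 0.18 without the replicate 1 pair, 0.025 without the replicate 2 pair and 0.053 without the replicate 3 pair. For all 3 genes the replicate 1 libraries of both genotypes lay above the other 4 libraries, by more than their log2 fold change between genotypes.

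Aurka, the Aurora kinase of the spindle poles, was at 24.5, 15.7 and 15.9 CPM in wild-type libraries and 24.7, 18.4 and 15.3 CPM in mutant libraries. The checkpoint kinase bub1 was the least stable member. It measured 39.3, 21.7 and 21.3 CPM in wild-type libraries and 39.4, 28.7 and 17.7 CPM in mutant libraries, with pair differences of 0.0022, 0.40 and -0.27. Its interval with the block, -0.30 to 0.40, was the widest of the set. Bub1bb, the BubR1 component of the same checkpoint, was steady by contrast, at 17.4, 14.6 and 15.2 CPM against 18.3, 15.3 and 16.5 CPM, with the mutant above its partner each time.

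Motors and spindle proteins differed in direction. Kif11, the kinesin that pushes spindle poles apart, measured 86.6, 86.0 and 93.4 CPM in wild-type libraries and 93.0, 89.5 and 96.3 CPM in mutant libraries. Nusap1, which bundles spindle microtubules, measured 49.3, 55.4 and 59.8 CPM and 53.7, 58.2 and 63.8 CPM. Kif20a, a kinesin of the central spindle needed for cytokinesis, was lower than its partner in every mutant library, at 35.7, 38.6 and 39.9 CPM in wild-type libraries and 31.9, 37.5 and 39.3 CPM in mutant libraries. Its log2 fold change with the block was -0.073 (SE 0.048, edgeR adjusted p 0.939), so it did not pass the test either, and -0.030 without the replicate 1 pair.

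Among the most used proliferation markers, mki67 and top2a stood close to wild-type. Mki67, which coats mitotic chromosomes and encodes the Ki-67 antigen, measured 187, 304 and 317 CPM in wild-type replicates 1, 2 and 3 and 186, 301 and 327 CPM in mutant replicates, a log2 fold change of 0.0077 (SE 0.035) with the block. Top2a, which untangles sister chromatids, measured 132, 169.7 and 185 CPM and 134, 167 and 189.8 CPM, a log2 fold change of 0.012 (SE 0.037). The intervals of these estimates ended at folds of 0.948 and 1.07 for mki67 and 0.950 and 1.07 for top2a. They were among the narrowest of the set and included both 0 and the median of the members.

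Chromatin and structural genes varied more between replicates than between genotypes. Hmgb2a, a chromatin protein of dividing progenitors, measured 849, 564 and 539 CPM in wild-type libraries and 875, 588 and 566 CPM in mutant libraries. Stmn1a, a regulator of microtubule assembly that young neurons also express, gave 142, 101 and 95.1 CPM and 139, 113 and 103 CPM. H2az2a, a variant histone listed as h2afva, gave 146, 127 and 116 CPM and 146, 139.7 and 118 CPM. The lamin lmnb1 gave 164, 175 and 184 CPM and 168, 185 and 183 CPM. All 4 had log2 fold changes above 0 with the block, between 0.036 and 0.090, and all overlapped between genotypes.

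Within pairs, the S-phase median was highest in replicate 1 and the G2 and mitosis median in replicate 2, where both groups had similar medians. In the replicate 1 pair all 12 tested S-phase genes were higher in the mutant, with a median log2 difference of 0.14, and 11 of 19 G2 and mitosis genes were, with a median of 0.012. In the replicate 2 pair the counts were 12 of 12 (median 0.073) and 15 of 19 (median 0.078). In the replicate 3 pair they were 7 of 12 (median 0.012) and 14 of 19 (median 0.050). Any difference above 0 counted, and the smallest S-phase ones were 0.00061 (ccne2) in replicate 1 and 0.0062 (rrm1) in replicate 2. Over all tested genes the mutant library was higher for 50%, 49.5% and 48% in the pairs of replicates 1, 2 and 3. The S-phase median was closest to 0 in replicate 3 and the G2 and mitosis median in replicate 1. A difference between the groups was not tested.

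**Figure D2:**
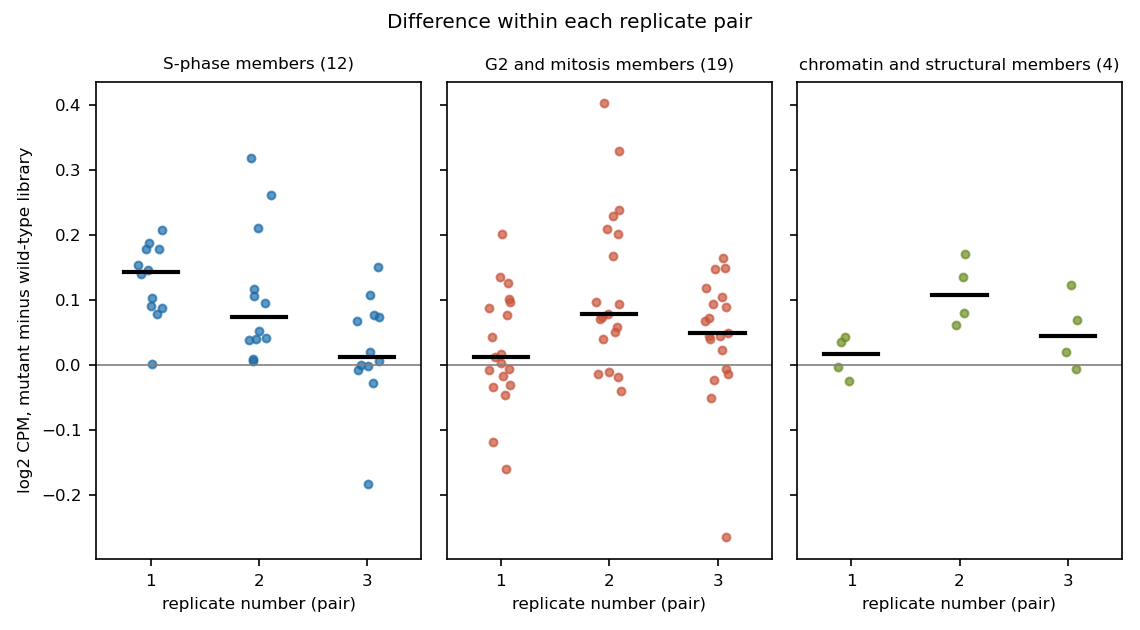
Difference in log2 CPM between the mutant and the wild-type library of each replicate number (horizontal axis) for each tested gene (points) in the 3 role groups, with the median as a bar. The S-phase medians are 0.14, 0.073 and 0.012 in pairs 1, 2 and 3, and the G2 and mitosis medians are 0.012, 0.078 and 0.050.

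Counted gene by gene, 15 of 35 members were above wild-type in all 3 pairs, where 13.1% of all tested genes were, and 1 member was below in all 3, where 13.9% were. Of the 15, 7 were S-phase genes (pcna, mcm6, rrm1, rrm2, tyms, tk1 and ccne2), 7 were G2 and mitosis genes (ccnb1, ccnb2, aurkb, bub1bb, cdca8, kif11 and nusap1) and 1 was hmgb2a. Some of these rest on a pair that was nearly level. Such pairs were ccne2 in replicate 1 (0.00061), pcna in replicate 3 (0.0053), and rrm1 (0.0062) and tyms (0.0097) in replicate 2. Among genes at least as abundant as the lowest tested member (6.10 CPM on average), the share above wild-type in all 3 pairs was 14.3%. With the block the median log2 fold change was 0.082 for the S-phase genes, 0.064 for the G2 and mitosis genes and 0.054 for the chromatin and structural genes. Without the replicate 1 pair, 34 of 35 members were above 0 with the block, with medians of 0.059 and 0.080 for the first 2 groups. The number above 0 was 30 without the replicate 2 pair and 32 without the replicate 3 pair. In fits without the block and without 1 library it ranged from 21 (without mutant replicate 1) to 32 (without mutant replicate 2). Replicate numbers were not balanced between the genotypes in those fits, so their values also carry differences between replicates. With the block, the G2 and mitosis median was 0.036 without the replicate 2 pair. In fits without the block it was 0.059 with all libraries, 0.012 without mutant replicate 1, 0.024 without wild-type replicate 3, 0.025 without wild-type replicate 2, 0.091 without mutant replicate 3, 0.095 without mutant replicate 2 and 0.17 without wild-type replicate 1.

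Summed over members, S-phase transcripts took 1259, 1178 and 1190.0 CPM in wild-type replicates 1, 2 and 3 and 1376, 1259 and 1206.5 CPM in mutant replicates. The mutant sum was above its partner each time, by 9.3%, 6.86% and 1.39%, and the genotype ranges overlapped. Sums of the G2 and mitosis genes were 1026, 1091 and 1138 CPM in wild-type libraries and 1047, 1134 and 1169.5 CPM in mutant libraries, higher by 1.97%, 4.02% and 2.8%. Here too the ranges overlapped. The group means of the S-phase sum were 1209 ± 44 and 1281 ± 87 CPM and those of the G2 and mitosis sum 1085 ± 56 and 1117 ± 63 CPM (SD, n = 3 each). The S-phase difference lay between both SDs and the G2 and mitosis difference below them. These SDs include the differences between replicates that same-numbered libraries share. They are therefore not the spread of the differences within pairs, and they do not rank the groups by steadiness. The ratio of the S-phase sum to the G2 and mitosis sum, which is comparable only across libraries because longer transcripts give more counts, was 1.23, 1.08 and 1.05 in wild-type and 1.31, 1.11 and 1.03 in mutant libraries. It was highest in replicate 1 of both genotypes. Abundant members such as pcna and mki67 weigh most in these sums, and most single genes did not follow the ratio. Gene by gene, the median log2 difference of replicate 1 from replicates 2 and 3 was -0.074 for the S-phase genes (4 of 12 higher). For the G2 and mitosis genes that median was 0.18 (14 of 19 higher).

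**Figure D3:**
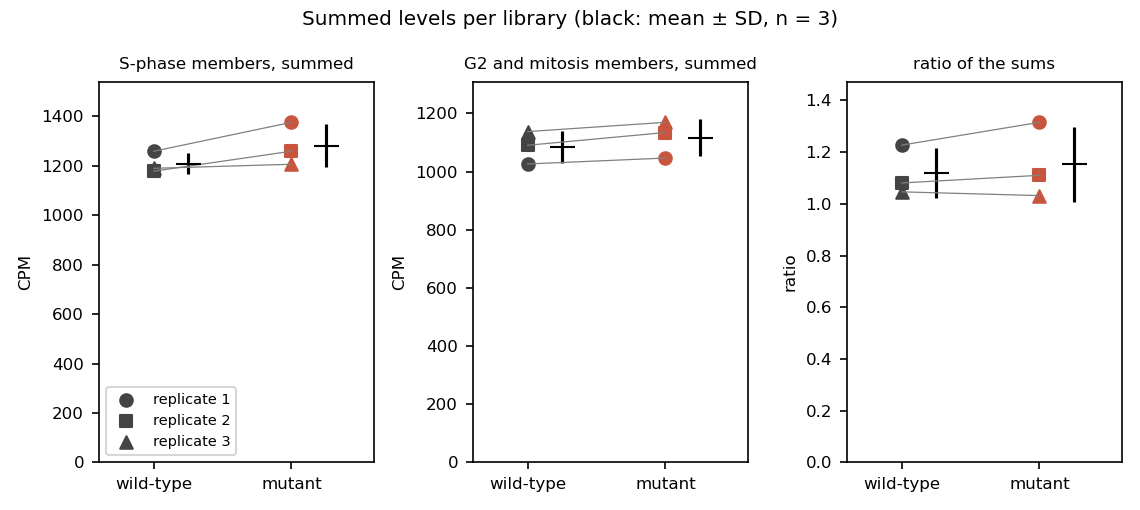
Summed CPM of the S-phase genes, of the G2 and mitosis genes, and the ratio of both sums in each library, with grey lines joining the libraries of one replicate number and the mean ± SD (n = 3) in black. Each mutant sum lies above its partner by 1.39% to 9.3%, and the genotypes overlap in all 3 panels.

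More members differed among the replicate numbers than between the genotypes. An edgeR F test across the replicate numbers, with genotype as a term, called 22 of 35 members at an adjusted p under 0.05. Over all tested genes it called 57.6%, a share close to that of the members. Of the S-phase genes 6 of 12 were called, of the G2 and mitosis genes 13 of 19, and of the chromatin and structural genes 3 of 4.

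Members moved in opposite directions with the replicate. Of the 35 tested members, 15 were called and higher in replicate 1 than in replicates 2 and 3, and 7 were called and lower. Over all tested genes, 28.2% were called and higher in replicate 1 and 29.4% were called and lower. Mcm7 (0.86 on the log2 scale, edgeR adjusted p 0.00377), bub1 (0.84, edgeR adjusted p 0.0118), aurkb (0.67, edgeR adjusted p 9.15e-05) and hmgb2a (0.61, edgeR adjusted p 3.07e-05) were furthest above, followed by aurka (0.60) and the ube2c entry ENSDARG00000114670 (0.49). Mki67 was furthest below, at -0.74 (edgeR adjusted p 2.52e-05), followed by top2a (-0.42), rrm1 (-0.22), nusap1 and kif20a (each -0.20) and mcm2 (-0.18). Tk1 was called for its higher level in replicate 3 (-0.28 between replicates 2 and 3), with -0.059 for replicate 1. Thus aurka, aurkb and bub1 stood on the opposite side from mki67 and top2a, all genes of G2 and mitosis. The mitotic kinase genes cdk1 (0.12, edgeR adjusted p 0.113) and plk1 (0.00041, edgeR adjusted p 0.618) were not called.

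Within the helicase complex, the same contrast gave -0.18, -0.089, 0.051, -0.045 and -0.093 for mcm2, mcm3, mcm4, mcm5 and mcm6, against 0.86 for mcm7. Mcm3, mcm4, mcm5 and mcm6 did not pass the test. Mcm7 shared with bub1 both the height in replicate 1 and the pattern within pairs, mutant above wild-type in replicate 2 and below it in replicate 3. It was not particular to them. Aurka had both as well, with pair differences of 0.23 and -0.051 in replicates 2 and 3, and so did some replication genes outside the set. This likeness was noticed in the values and was not tested. Trunk hox genes, muscle and neuron markers moved with the same contrast, by medians of 2.72, 1.91 and -0.68, and their part in the members' replicate difference was not tested.

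**Figure D4:**
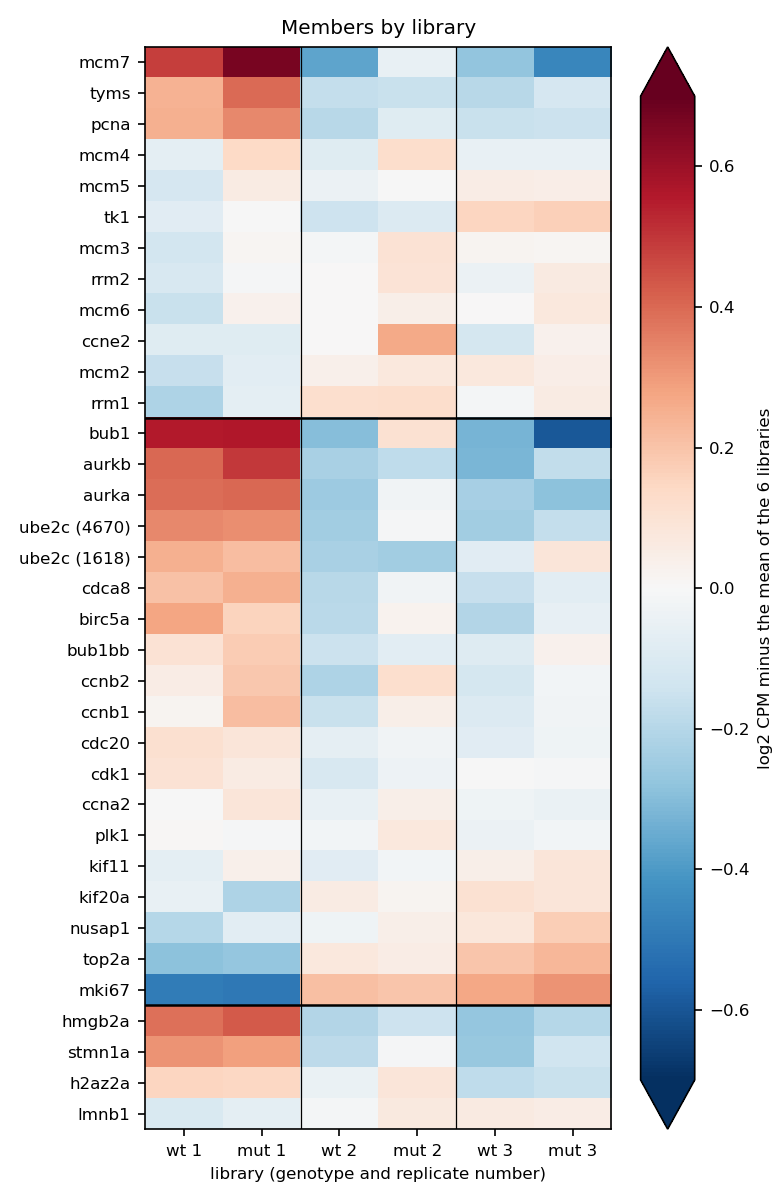
Log2 CPM of each tested gene in each library minus the gene's mean over the 6 libraries (colour, red above and blue below, cut at 0.7), with libraries ordered by replicate number and genes grouped by role between the horizontal lines. Mcm7, bub1, aurkb and hmgb2a are red and mki67 is blue in both replicate 1 libraries, and wild-type and mutant columns of one number resemble each other.

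Of the other genes of the same pathways most had log2 fold changes above 0, and none was called. Of 52 further names in replication (origin recognition, polymerases, clamp loader, GINS and licensing factors) 51 were matched and tested, and 45 had a log2 fold change above 0 and 6 below 0 with the block, with a median of 0.062 and 21 above wild-type in all 3 pairs. Over all tested genes 49.6% were above 0 and 13.1% above wild-type in all 3 pairs. Cdc6, which loads the helicase at origins, measured 23.2, 26.7 and 23.4 CPM in wild-type libraries and 24.6, 29.1 and 26.0 CPM in mutant libraries (log2 fold change with the block 0.12, SE 0.047, edgeR adjusted p 0.939). Cdk2, the partner of cyclin E, measured 21.1, 21.6 and 20.8 CPM and 22.6, 24.5 and 22.4 CPM (0.13, SE 0.049, edgeR adjusted p 0.939). All mutant libraries of cdk2 lay above all wild-type libraries, which held for 4 of the 51 genes of this list and 1.09% of all tested genes. Cdc6 and cdk2 are named because they had the smallest unadjusted p of their list in the blocked fit.

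Further mitosis genes, 64 of 66 names tested, had 50 above 0 and 14 below 0, with a median of 0.042. Ncaph, a subunit of condensin, gave 31.0, 33.3 and 34.9 CPM in wild-type libraries and 34.9, 37.6 and 36.3 CPM in mutant libraries, and the kinetochore gene ndc80 gave 36.9, 32.3 and 31.2 CPM and 40.4, 34.6 and 33.6 CPM. Their log2 fold changes with the block were 0.13 (SE 0.047) and 0.11 (SE 0.043), both with an edgeR adjusted p of 0.939. The replication list, like the S-phase members, had its highest median in the replicate 1 pair (0.091, 0.060 and 0.0070 in pairs 1, 2 and 3), and the mitosis list was even (0.035, 0.063 and 0.034). All 4 lists share the same 6 libraries, so their pair medians are not independent of each other.

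Regulators of the decision to divide were less uniform in direction. The 30 tested genes among CDK inhibitors, pocket proteins, E2F factors and D-type cyclins had 20 above and 10 below 0 with the block. Over all tested genes 49.6% were above 0. Their median was 0.056, with pair medians of 0.019, 0.080 and -0.020 in pairs 1, 2 and 3, and 0 passed the test. E2f7, a repressor of E2F targets that is itself an E2F target, measured 12.5, 15.9 and 14.3 CPM in wild-type libraries and 15.14, 17.7 and 15.7 CPM in mutant libraries (0.18, SE 0.058, edgeR adjusted p 0.939). Gadd45ba, a stress-induced growth arrest gene, had 24.9, 15.0 and 16.7 CPM in wild-type libraries and 19.1, 15.4 and 13.4 CPM in mutant libraries (-0.22, SE 0.088, edgeR adjusted p 0.939). Its mutant library was lower in replicates 1 and 3 only.

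Markers of the cell types around the dividing cells were measured in the same pairs. Neural progenitor markers (30 genes tested, summed level 2320.3 to 2405 CPM in wild-type libraries and 2253 to 2455.5 CPM in mutant libraries) had 17 above and 13 below 0 and pair medians of -0.025, 0.078 and -0.022. Their median log2 fold change with the block was 0.011. Sox19a and her4.2 had 0.14 (SE 0.041) and 0.34 (SE 0.11), with an edgeR adjusted p of 0.939 each. Neuron markers (25 genes) summed to 3273 to 6019 CPM in wild-type libraries and 3242 to 5898 CPM in mutant libraries. They had 9 above and 16 below 0 and pair medians of -0.023, 0.052 and -0.086. Their median with the block was -0.024, with nefmb at -0.14 (SE 0.040) and map1b at -0.12 (SE 0.039). Photoreceptor markers (22 genes, 2621.5 to 6203 CPM and 2476 to 5708 CPM) had 1 above and 21 below 0. Their pair medians were -0.075, -0.35 and -0.095 and their median with the block was -0.17. Opn1sw2 was at -0.30 (SE 0.075) and rom1a at -0.29 (SE 0.072). No marker gene of these lists passed the edgeR test, and their part in the members' offset was not tested.

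Tissues outside the nervous system varied between pairs without a common direction. Red blood cell markers (15 genes, 1043 to 3176 CPM in wild-type libraries and 1267 to 2306 CPM in mutant libraries) had 4 above and 11 below 0 with the block and pair medians of -0.46, -0.30 and 0.28, with hbae3 at -0.24 (SE 0.18) and gata1a at -0.38 (SE 0.25). Muscle markers (26 genes, 16901 to 94444 CPM and 18539 to 94800 CPM) had 11 above and 15 below 0 and pair medians of 0.011, -0.22 and 0.16, with actc1b at 0.056 (SE 0.029) and myhz1.1 at -0.28 (SE 0.11). Trunk hox genes, 16 of 23 above the filter on low counts, summed to 14.6 to 135 CPM in wild-type libraries and 17.2 to 119.6 CPM in mutant libraries, with 7 above and 9 below 0, pair medians of -0.21, 0.014 and 0.21, and hoxc9a at -0.45 (SE 0.24) and hoxd12a at -0.22 (SE 0.16). None of these genes passed the edgeR test, and the part of these tissues in the members' offset was not tested.

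**Figure D5:**
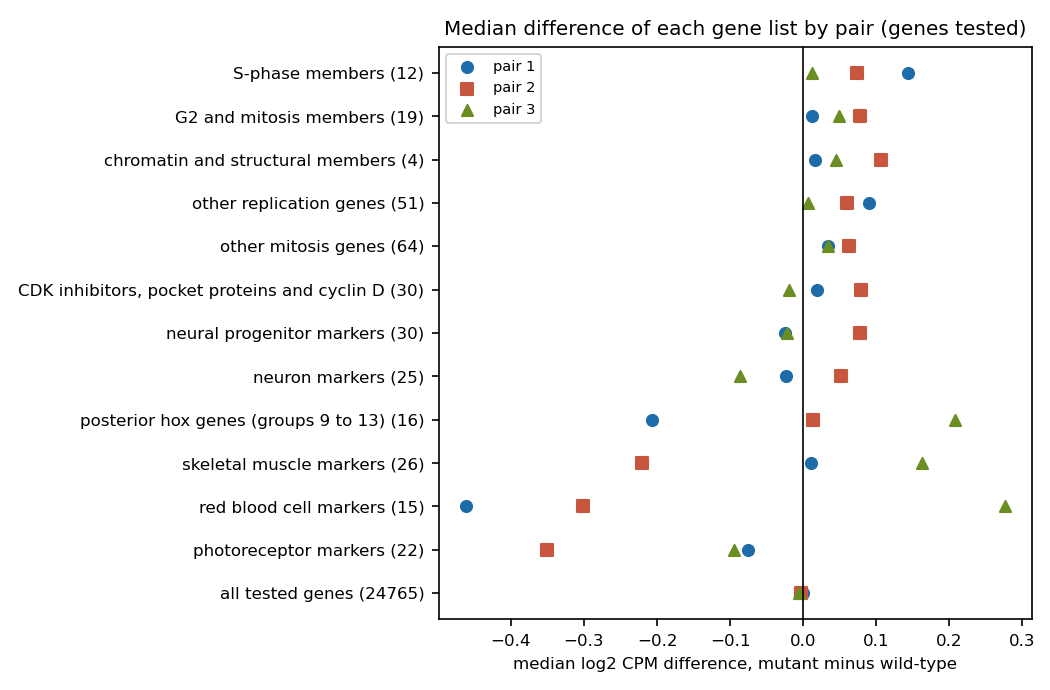
Median difference in log2 CPM between the mutant and the wild-type library of each replicate number for each gene list, with the number of tested genes in brackets. The 3 member groups and the replication and mitosis lists have medians between 0.0070 and 0.14 in each pair, while blood, muscle and hox markers change sign between pairs.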

How the data were processed

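Polyadenylated RNA from 6 head libraries was sequenced with a stranded mRNA kit, per the labels' protocols. The table used here holds the raw counts that the authors deposited, for 32520 Ensembl genes. The submitters' processing notes name STAR 2.7.3, featureCounts 1.6.4, DESeq2 and build GRCz11 without roles, and the strand setting in counting is not given in the sources used here. A second deposited table of normalized values was not used here.

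Counts were fitted in edgeR 4.0.16 (R 4.3.3) with TMM factors, filterByExpr by genotype (24765 genes kept), genotype as the only term and a 2-sided robust quasi-likelihood F test with Benjamini-Hochberg adjustment and a threshold of 0.05. The replicate number was the block of the alternative fit and, with genotype as a term, the subject of a second test. Differences within pairs used log2 CPM with a prior count of 2. Alternative tools were limma-voom (limma 3.58.1) and DESeq2 1.42.0, beside other scalings, no filter and leaving out libraries or pairs. The procedure was tested on simulated data that kept the differences between replicates: the fit without the block recovered none of the changed genes at any fold tried, and the fit with it recovered more of them at larger folds but made more false calls than its threshold allows. Libraries with the same number shared their deviations from the genotype mean across genes, with correlations of 0.863, 0.579 and 0.744. The numbers, which come from the labels, were treated as pairs. Between wild-type replicate 2 and mutant replicate 3 the correlation was 0.418, and between wild-type replicate 3 and mutant replicate 2 it was 0.365. Pairs 2 and 3 were thus less distinct from each other than from pair 1. Deviations within a genotype sum to 0, so a large deviation of replicate 1 by itself makes replicates 2 and 3 correlate. These correlations alone therefore cannot establish the pairing of replicates 2 and 3. No libraries were duplicates (chi-square per gene at least 4.79).

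The members and lists were chosen with earlier results of these data known. Named genes are all members, srrm4 and the 2 genes of each other list with the smallest p in the blocked fit. Gene names came from the deposited table, and from synonyms in the RefSeq annotation of GRCz12tu for names not found there. Figures were drawn with matplotlib 3.10.9. Promoter sequences were not used here, so no motif search was run.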

Additional observations from a re-analysis of the deposited data

How the results depend on the processing

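The fits without 1 library have no block, so replicate numbers are no longer balanced between the genotypes. Across them the median log2 fold change of the G2 and mitosis genes ranged from 0.012 (without mutant replicate 1) to 0.17 (without wild-type replicate 1), and it was 0.025, 0.024, 0.095 and 0.091 without wild-type replicate 2, wild-type replicate 3, mutant replicate 2 and mutant replicate 3. The S-phase median stayed between 0.061 and 0.11. Single members changed sign in 45 of 210 such values, with ranges of -0.037 to 0.078 for mcm2, -0.015 to 0.15 for rrm1, -0.19 to 0.22 for mki67, -0.11 to 0.14 for top2a, -0.0053 to 0.078 for lmnb1, -0.099 to 0.23 for pcna, -0.24 to 0.45 for mcm7, -0.027 to 0.14 for tk1, -0.045 to 0.061 for cdk1, -0.020 to 0.083 for cdc20 and -0.15 to 0.30 for aurka. The remaining ranges that crossed 0 were -0.24 to 0.41 for bub1, -0.063 to 0.18 for ube2c entry ENSDARG00000101618, -0.061 to 0.31 for ube2c entry ENSDARG00000114670, -0.019 to 0.24 for birc5a, -0.17 to 0.30 for hmgb2a, -0.16 to 0.36 for aurkb, -0.023 to 0.14 for h2az2a, -0.054 to 0.28 for stmn1a, -0.11 to 0.24 for tyms, -0.011 to 0.24 for cdca8 and -0.13 to 0.012 for kif20a.

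With the replicate block no call of a member changed, and the block moved the S-phase median from 0.086 to 0.082 and the G2 and mitosis median from 0.059 to 0.064. Without the replicate 2 pair the blocked log2 fold change was -0.00079 for mcm7, -0.024 for cdk1, -0.018 for aurka and -0.13 for bub1, and edgeR called 2 genes in all, no member among them. Without the replicate 3 pair it was -0.0087 for mki67 and -0.021 for ube2c entry ENSDARG00000101618. Limma-voom without the block gave -0.015 for mki67. DESeq2 with the block called 18 genes against 0 in the edgeR fit without the block. The cause of these changes was not tested. Other scalings, no filter on low counts, DESeq2 and the 10 S-phase genes of the mcm, pcna, rrm and tyms families alone left the direction of all members or of the median as it was. The replicate test called between 16 members (DESeq2 likelihood ratio test) and 25 (library totals only). Over all tested genes these settings called 52.7% and 63%. Depth limits the second rrm2 entry, which fell below the filter on low counts.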
